A study of Mus musculus with 4 samples.

Results

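The genes described here are 36 immediate-early, stress-induced and feedback genes with short-lived transcripts, among 35147 genes measured in RNA that came down with 4E-T from the mouse forebrain. They were chosen by name, with earlier results of these data known, and each symbol matched 1 gene of the deposited table. The material was the ventricular-subventricular zone (V-SVZ), the germinal layer along the lateral ventricles, of CD1 mice, wild type and aged 7 or 8 days. One group of 2 libraries came from precipitates with an antibody against 4E-T, and the other group of 2 libraries from precipitates with control IgG. Libraries with the same replicate number belong to the same numbered experiment. Genotype, strain, age and tissue were the same in both groups, and no treatment is labelled. The labels do not say whether the experiments came from separate animals, so p-values measure the spread between these libraries, which may be technical.

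4E-T, the product of Eif4enif1, binds the cap-binding protein eIF4E and is a component of P-bodies, cytoplasmic granules that hold repressed mRNA and decay factors. Immediate-early genes are transcribed within minutes of a growth factor, neuronal activity or stress signal, without new protein synthesis, from promoters prepared by factors such as SRF and CREB. Many of their mRNAs carry AU-rich elements that recruit proteins of the ZFP36 family and the deadenylation machinery, which shortens their lives. In the brain they are widely used as marks of recent stimulation.

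The libraries held 23006357 and 28749439 gene reads with 4E-T and 14421019 and 24780150 gene reads with IgG. Every listed marker of the cells expected in this tissue was detected in all libraries. Detection alone says little here, since of 1312 olfactory and vomeronasal receptor genes only 0 to 331 per library held 0 reads. Markers of stem cells and astrocytes (14 genes) took 0.339% and 0.461% of gene reads with 4E-T and 0.387% and 0.647% with IgG. Those of neuroblasts (14 genes) took 0.311% and 0.258% with 4E-T and 0.299% and 0.283% with IgG. Endothelial and mural markers (17 genes) took 0.0343% and 0.041% with 4E-T and 0.117% and 0.0505% with IgG. Microglial markers (14 genes) took 0.0712% and 0.064% with 4E-T and 0.088% and 0.105% with IgG. Genes of olfactory and vomeronasal receptors, which this tissue should lack (1312 genes), took 0.0562% and 0.0142% with 4E-T and 0.243% and 0.0424% with IgG, so IgG replicate 1 stood apart. The part of these differences in the results below was not tested. Fewer cells that hold an RNA, less of it per cell and less of it on the antibody cannot be told apart here.

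As a group, the 36 genes took 0.183% and 0.226% of gene reads in the 4E-T libraries, against 0.133% and 0.161% in the IgG libraries, so the groups did not overlap on this sum. The sum weights each gene by its reads, so genes with many reads count most. Egr1 had 4885 and 8741 reads with 4E-T, against 836 and 2588 with IgG, while Btg1 had 4255 and 4308 against 3326 and 5153. No sum without such genes was tested for the 36 members. Of the 34 that could be tested, 11 were called higher in the blocked fit, which compares the antibodies within experiments, or 32.4% against 17.5% of all tested genes: the AP-1 genes Fos, Jun and Junb, the zinc finger gene Egr1, the RNA decay genes Zfp36, Zfp36l1 and Zfp36l2, the stress genes Ddit3, Gadd45a and Gadd45g, and Ier2. In these the FPKM ratio of 4E-T to IgG ran between 1.29 and 5.25 within an experiment. None passed in the fit that does not use the experiments, Zfp36l1 and Gadd45g lost the call after quantile normalization, and Gadd45g also on recovered reads. No tested gene of the NR4A or KLF families passed in any of these fits. Btg1, Btg2 and Mcl1 were not called higher in any, and Btg1 and Mcl1 were called lower after quantile normalization with the block. Levels are given as FPKM as deposited by the authors, a level per transcript length and a scale of each library. Relative to IgG replicate 1, the recovered scale was 1.1138 and 1.0837 for 4E-T replicates 1 and 2 and 1.0286 for IgG replicate 2. It thus did not follow the gene reads of the libraries given above. Fold changes are 4E-T over IgG on the log2(FPKM + 1) scale.

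**Figure D1:**
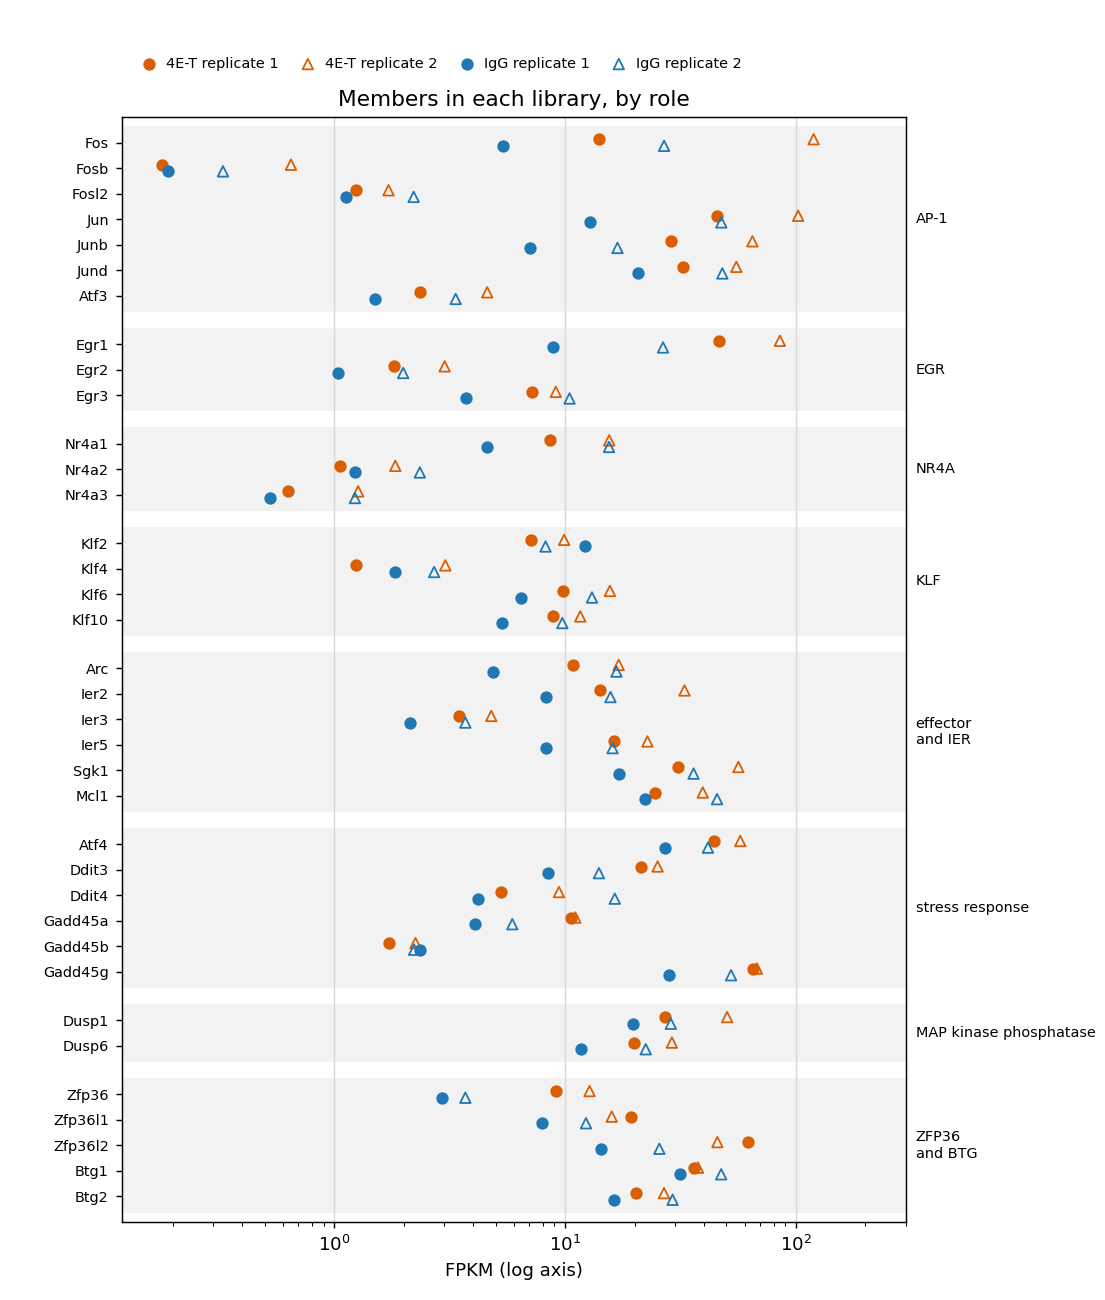
FPKM of the 36 members (log axis) in each of the 4 libraries, grouped by role, with 4E-T in orange and IgG in blue, filled circles for experiment 1 and open triangles for experiment 2. Both orange symbols lie right of both blue symbols for 10 of the 34 tested members (29.4%, against 32.6% of all tested genes), among them Junb, Egr1 and Zfp36, while for Fos the IgG value of experiment 2 (26.8) lies right of the 4E-T value of experiment 1 (14.0).

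Of the members, 34 had a mean of at least 1 FPKM and were tested with limma among 17651 genes; Fosb and Nr4a3 fell under this level. Without a term for the experiment, limma called 0 of the 34 members higher, against 0.00567% of all tested genes (1 gene), and 0 lower, against 0% of all tested genes. At an unadjusted p under 0.05 there were 6 of the 34 members higher, or 17.6%, against 11.2% of all tested genes, and 0 lower, against 1.78%. When the experiment was entered as a block, limma called 11 members higher, or 32.4%, against 17.5% of all tested genes, and 0 lower, against 4.44%. On simulated data all 3 blocked fits called a larger share of unchanged genes among their calls than the threshold allows. The simulation fixed the number of changed genes, the spread and the size of the experiment effect. It therefore does not give the share in these libraries. The blocked fit has 1 residual degree of freedom and borrows the spread of each gene from a trend over all genes, so its p-values say little of how a single gene varies. After quantile normalization with the block, 9 members were called higher (10.4% of all tested genes) and 2 lower (9.23%), and in limma-voom on recovered reads with the block 10 were called higher (13.2%) and 1 lower (11.5%). The 3 blocked fits use the same libraries, and the share of all tested genes called higher in all 3 was not counted. Fos, Jun, Junb, Egr1, Ier2, Ddit3, Gadd45a, Zfp36 and Zfp36l2 were called higher in all 3 blocked fits. The authors' deposited table also gave these 9 of the 34 tested members, and no other, an adjusted p under 0.05 and a higher value with 4E-T, where 10.7% of its 22881 genes with an adjusted p were higher and 2.61% lower.

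The scale matters for this reading, because the deposited FPKM put the median log2 fold change of all tested genes at 0.18, against -0.02 after quantile normalization and -0.08 in the blocked fit of recovered reads. The members' median was 0.48, which is 0.30 above all tested genes, and 0.23 and 0.34 above them under the other two scalings. Within experiment 1 it was 0.70, against 0.32 for all tested genes, and within experiment 2 it was 0.35, against 0.08. Both 4E-T libraries lay above both IgG libraries for 10 of the 34 members, against 32.6% of all tested genes, and below them for 0, against 8.13%. On recovered reads as CPM, scaled with TMM (a trimmed mean of log ratios), the counts were 13 members above (25.3% of all tested genes) and 4 members below, Btg1, Fosl2, Gadd45b and Nr4a2 (23.9%). In both experiments 4E-T was above IgG for 24 members, or 70.6%, against 49.4% of all tested genes, and below it for 1 member, Nr4a2, against 18.5%.

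The IgG libraries differed more for these genes than for most. IgG replicate 2 exceeded IgG replicate 1 for 34 of the 36 members, with a median ratio of 1.9 against 1.41 for all tested genes. 4E-T replicate 2 likewise exceeded 4E-T replicate 1 for 34 of 36, with a median ratio of 1.59 against 1.17 for all tested genes. Most members thus stood higher in experiment 2 with either antibody on the deposited FPKM. The counts depend on the scale. On TMM-scaled CPM, Ddit3, Gadd45a, Gadd45g, Zfp36l1, Zfp36l2 and Btg1 were lower in 4E-T replicate 2 than in 4E-T replicate 1, and the other members higher. Klf2, Gadd45b and Zfp36 were lower in IgG replicate 2 than in IgG replicate 1, and the other members higher. With an IgG library left out, that arm holds 1 library, the spread comes from the 4E-T pair alone, and the lone library is assumed to vary like it. Without a block, leaving out IgG replicate 1 left Junb and Zfp36 as the members called higher, 2 of 34 against 4.86% of all tested genes, and Ddit4 called lower, 1 of 34 against 0.889%. Leaving out IgG replicate 2 gave 15 members higher, against 13.8% of all tested genes, and 0 lower, against 6.2%. The distance of the members' median from that of all tested genes was 0.10 without IgG replicate 1, 0.13 without 4E-T replicate 2, 0.45 without 4E-T replicate 1 and 0.50 without IgG replicate 2.

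**Figure D2:**
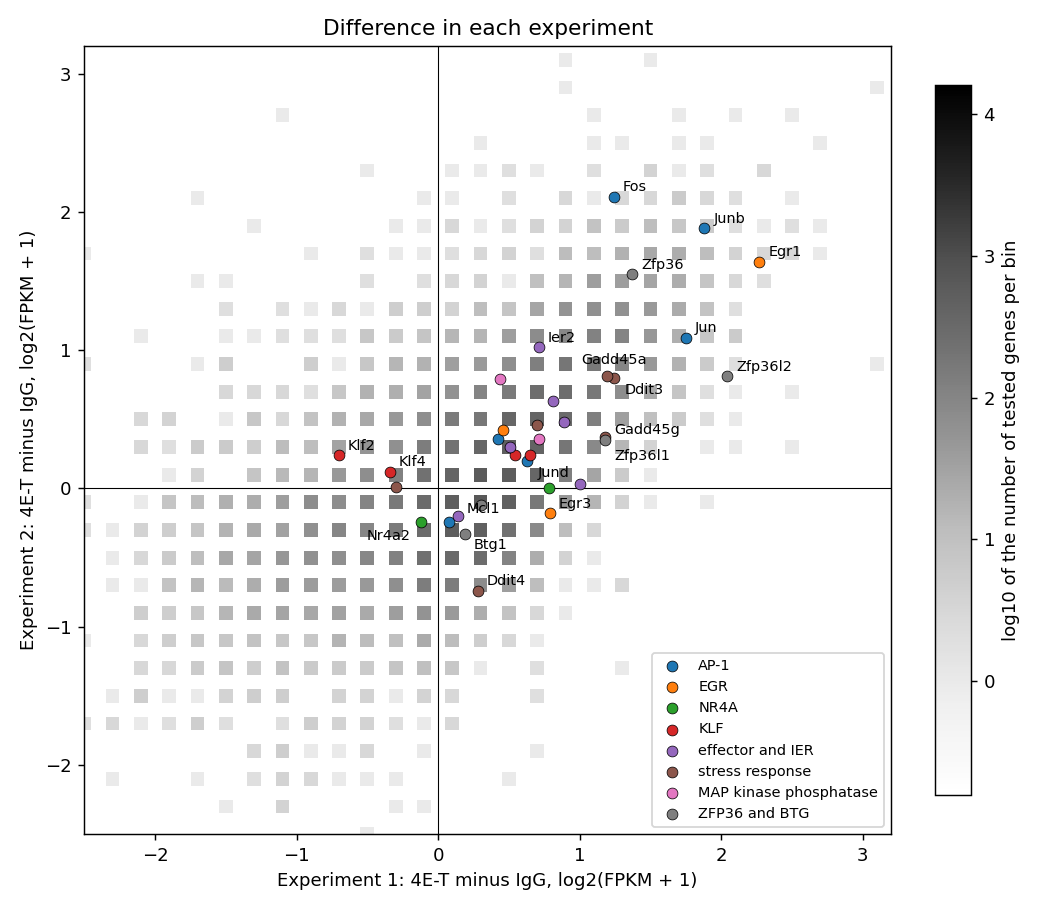
Difference between 4E-T and IgG in log2(FPKM + 1) in experiment 1 (horizontal axis) and experiment 2 (vertical axis), with the 34 tested members as points coloured by role over all tested genes as grey squares, darker for more genes; both axes show -2.5 to 3.2. Egr1, Junb, Fos, Jun and Zfp36 lie above 1 on both axes, and Ddit4 lies at 0.28 and -0.74.

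AP-1 is a dimeric transcription factor made of FOS, JUN and ATF proteins, and of its 6 tested genes 3 rose in the blocked fit and 0 fell, where 17.5% of all tested genes rose and 4.44% fell. Fos, the classic immediate-early gene, had 14.0 and 119 FPKM in the 4E-T libraries, against 5.37 and 26.8 FPKM in the IgG libraries. The groups overlapped, since 4E-T replicate 1 lay under IgG replicate 2, but within the experiments 4E-T was 2.61 and 4.44 times IgG. Its log2 fold change was 1.67 (limma, SE 0.93 and adjusted p = 0.491 without the block, SE 0.29 and adjusted p = 4.03e-07 with it). The unblocked value rested on single libraries, at 0.17 without 4E-T replicate 2, 3.17 without 4E-T replicate 1, 0.61 without IgG replicate 1 and 2.74 without IgG replicate 2.

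Junb, a JUN protein that often restrains JUN, had 28.7 and 64.8 FPKM in the 4E-T libraries, against 7.04 and 16.9 FPKM in the IgG libraries, with no overlap. Its ratios within the experiments were 4.07 and 3.84, close to each other, and its log2 fold change was 1.88 (limma adjusted p = 0.221 without and 7.94e-09 with the block). Jun, the founding AP-1 subunit, had 45.3 and 102 FPKM with 4E-T, against 12.8 and 47.5 FPKM with IgG. Here 4E-T replicate 1 lay just under IgG replicate 2 on FPKM, and the groups separated on TMM-scaled CPM (149 and 270 CPM with 4E-T, 55.3 and 144 CPM with IgG). The log2 fold change of Jun was 1.42 (limma adjusted p = 0.4 without and 5.33e-05 with the block), and 0.51 without IgG replicate 1, 0.84 without 4E-T replicate 2 and 2.33 without IgG replicate 2.

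Jund, the JUN gene with the steadiest expression, had 32.6 and 55.2 FPKM with 4E-T, against 20.6 and 48.0 FPKM with IgG, and a log2 fold change of 0.42 (blocked limma fit, adjusted p = 0.35) that was 0.02 after quantile normalization. Fosl2, a FOS relative, had 1.24 and 1.72 FPKM with 4E-T, against 1.12 and 2.21 with IgG, and Atf3, a stress-induced partner, 2.36 and 4.60 FPKM against 1.50 and 3.36. Their groups overlapped on FPKM, and on TMM-scaled CPM Fosl2 lay below without overlap (8.36 and 9.34 CPM with 4E-T, 9.96 and 13.8 CPM with IgG). Neither passed with the block (limma adjusted p = 0.897 and 0.296). Fosb was the lowest member, at 0.18 and 0.65 FPKM with 4E-T and 0.19 and 0.33 FPKM with IgG, from 16 and 56 reads against 15 and 27. Differences between the AP-1 genes were not tested.

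The promoters of Fos and Junb are shown because both genes stood high with 4E-T and both promoters hold the core of the cAMP response element, the site of CREB. RefSeq promoters (build GRCm38.p6, the build named mm10 in the submitters' processing notes) were at hand for 30 of the 36 members, and the 250 bases before the start were searched on both strands. TGACG stood in the promoters of 15 of the 30 members, or 50%, against 19.8% of all 27025 genes with a promoter. The full element TGACGTCA, which contains TGACG, stood in 2 of the 30, Btg2 and Dusp1, or 6.67% against 1.77%, and TATAAA in 7 of the 30, or 23.3% against 14.3%. Of the 15, 2 (Fos and Junb) were called higher in the blocked fit, where 17.5% of all tested genes were called higher. The other 13 were not, but they include Fosb and Nr4a3, which were not tested and so could not be called. No relation between motif and fold change was tested. In both sequences, 5′ to 3′ and ending at the base before the start, capitals mark TGACG, which begins 129 and 66 bases before the start in Fos and 106 bases before it in Junb, and TATAAA, 33 bases before it in Fos. A match is a description of letters and not of binding.
Fos, chr12:85473640-85473889, plus strand: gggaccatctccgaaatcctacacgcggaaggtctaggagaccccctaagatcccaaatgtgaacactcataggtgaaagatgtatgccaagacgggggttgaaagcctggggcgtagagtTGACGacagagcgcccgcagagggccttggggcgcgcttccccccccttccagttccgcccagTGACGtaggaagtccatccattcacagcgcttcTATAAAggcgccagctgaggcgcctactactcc
Junb, chr8:84978749-84978998, minus strand: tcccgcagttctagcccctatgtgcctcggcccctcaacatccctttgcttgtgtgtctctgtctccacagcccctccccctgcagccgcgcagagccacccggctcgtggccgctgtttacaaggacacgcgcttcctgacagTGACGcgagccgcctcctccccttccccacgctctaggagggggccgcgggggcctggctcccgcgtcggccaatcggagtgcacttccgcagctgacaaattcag

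EGR proteins are zinc finger transcription factors whose genes are induced through SRF, and 1 of the 3 rose in the blocked fit, against 17.5% of all tested genes. Egr1 had 46.3 and 85.2 FPKM in the 4E-T libraries, against 8.83 and 26.6 FPKM in the IgG libraries. Both 4E-T values exceeded both IgG values, with ratios of 5.25 and 3.21 within the experiments, and its log2 fold change of 1.96 was the highest of the members (limma adjusted p = 0.223 without and 5.63e-09 with the block). Without IgG replicate 1 it was 1.21. Egr3, induced by growth factors and neuronal activity, had 7.17 and 9.12 FPKM with 4E-T, against 3.71 and 10.5 FPKM with IgG, so it was higher in experiment 1 and lower in experiment 2. Egr2, which is known for its part in myelinating Schwann cells, had 1.81 and 3.01 FPKM with 4E-T, against 1.04 and 1.99 FPKM with IgG. Neither passed with the block (limma adjusted p = 0.432 and 0.262).

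The NR4A genes encode orphan nuclear receptors that respond to cAMP and calcium. Nr4a1 had 8.61 and 15.5 FPKM with 4E-T, against 4.61 and 15.5 FPKM with IgG, which is a ratio of 1.87 in experiment 1 and 1.0 in experiment 2. Nr4a2, a factor of dopamine neurons, had 1.06 and 1.84 FPKM with 4E-T, against 1.23 and 2.35 FPKM with IgG, and was the only tested member below IgG in both experiments. Nr4a3, the third of these receptors, had 0.63 and 1.27 FPKM with 4E-T, against 0.53 and 1.23 FPKM with IgG. With the block neither Nr4a1 nor Nr4a2 passed (limma adjusted p = 0.305 and 0.738), where 17.5% of all tested genes rose and 4.44% fell.

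Of the 4 KLF zinc finger genes none passed in the blocked fit, where 17.5% of all tested genes rose and 4.44% fell. So few genes say little of a family. Klf2, an endothelial and immune cell factor induced by blood flow, had 7.09 and 9.91 FPKM with 4E-T, against 12.2 and 8.23 FPKM with IgG. It stood highest in IgG replicate 1. That library had the highest share of endothelial and mural markers, and also of ependymal, choroid plexus, red blood cell and olfactory receptor genes. Whether any of these bears on Klf2 was not tested. Klf4, a factor of stem cells and epithelia, had 1.24 and 3.03 FPKM with 4E-T, against 1.83 and 2.71 FPKM with IgG. Both genes lay under IgG in experiment 1 and above it in experiment 2. Klf6, which has been tied to axon growth, had 9.80 and 15.6 FPKM with 4E-T, against 6.43 and 13.1 FPKM with IgG, and Klf10, induced by TGF-beta, had 8.88 and 11.6 FPKM with 4E-T, against 5.31 and 9.73 FPKM with IgG. Their log2 fold changes ran between -0.23 for Klf2 and 0.44 for Klf10.

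**Figure D3:**
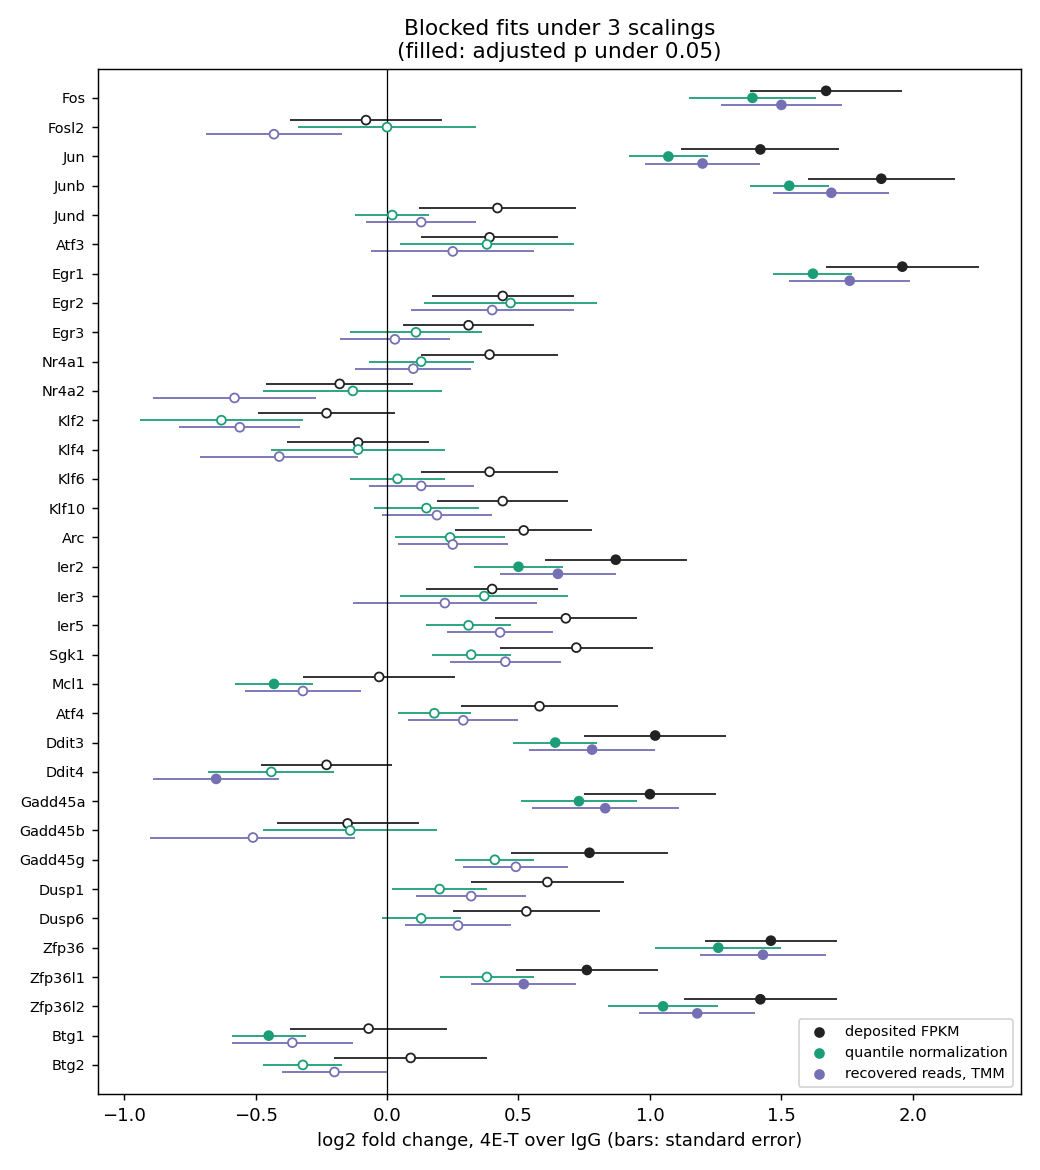
Log2 fold change (4E-T over IgG, bars for the standard error) of the 34 tested members in the blocked fit on the deposited FPKM, after quantile normalization and on recovered reads, filled where the adjusted p was under 0.05. Junb, Egr1, Fos, Jun, Zfp36 and Zfp36l2 lie above 1 under all 3 scalings, and Btg2 is at 0.09 on the deposited FPKM, -0.32 after quantile normalization and -0.20 on recovered reads.

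Zfp36, Zfp36l1 and Zfp36l2 encode CCCH zinc finger proteins that bind AU-rich elements and bring the CCR4-NOT deadenylase to an mRNA, and their own mRNAs are targets of the same control. All 3 rose in the blocked fit (17.5% of all tested genes) and their groups did not overlap (32.6% of all tested genes lay above likewise). Zfp36 (tristetraprolin) had 9.16 and 12.8 FPKM in the 4E-T libraries, against 2.94 and 3.70 FPKM in the IgG libraries. Its ratios were 3.12 and 3.45, its IgG libraries lay close together, and its log2 fold change was 1.46 (limma adjusted p = 0.202 without and 3.49e-07 with the block). Zfp36l2 had 62.2 and 45.7 FPKM with 4E-T, against 14.4 and 25.6 FPKM with IgG, and a log2 fold change of 1.42 (limma adjusted p = 0.253 without and 3.6e-05 with the block). Its ratio was 4.32 in experiment 1 and 1.78 in experiment 2. Zfp36l1 had 19.3 and 15.9 FPKM with 4E-T, against 7.95 and 12.3 FPKM with IgG. Its log2 fold change of 0.76 (blocked limma fit, adjusted p = 0.0238) fell short after quantile normalization (adjusted p = 0.141) and was 0.48 without IgG replicate 1.

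The Zfp36 promoter is shown because the gene's ratios were alike in both experiments and it holds a CArG box, the site of SRF. Within the stretch searched, Zfp36 and Egr2 were the only 2 of the 30 members with a match (6.67%, against 1.62% of all genes). Bases further upstream were not searched, nor were members without a promoter at hand. The lack of a match therefore does not show that a gene has no such box. In Zfp36 the box stands in capitals, beginning 58 bases before the start.
Zfp36, chr7:28379229-28379478, minus strand: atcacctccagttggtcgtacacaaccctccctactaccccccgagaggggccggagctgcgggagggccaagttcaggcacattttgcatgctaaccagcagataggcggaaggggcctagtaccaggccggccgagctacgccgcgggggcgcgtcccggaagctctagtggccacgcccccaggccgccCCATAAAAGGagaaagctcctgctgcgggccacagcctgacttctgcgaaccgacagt

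BTG proteins restrain proliferation and also contact the deadenylase, and neither gene passed on the deposited FPKM. Btg1 had 36.2 and 37.7 FPKM with 4E-T, against 31.5 and 47.4 FPKM with IgG, a log2 fold change of -0.07. In the blocked limma fit it was called lower on quantile-normalized values, at -0.45 (adjusted p = 0.0311), but not on the deposited FPKM (adjusted p = 0.919) or on recovered reads (adjusted p = 0.252). Btg2, which marks neurogenic progenitors, had 20.3 and 26.8 FPKM with 4E-T, against 16.3 and 29.2 FPKM with IgG. Its log2 fold change of 0.09 turned to -0.32 after quantile normalization and -0.20 on recovered reads, and passed in none of the blocked fits.

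Of the 6 stress genes 3 rose in the blocked fit and 0 fell, against 17.5% and 4.44% of all tested genes, and 1 of the 3, Gadd45g, passed under no other scaling. The pro-apoptotic factor gene Ddit3 (CHOP) had 21.3 and 25.2 FPKM in the 4E-T libraries, against 8.41 and 14.0 FPKM in the IgG libraries. Gadd45a, a DNA damage and growth arrest gene, had 10.6 and 11.1 FPKM with 4E-T, against 4.07 and 5.91 FPKM with IgG. Neither gene's groups overlapped, and the log2 fold changes were 1.02 and 1.0 (blocked limma fit, adjusted p = 0.00204 and 0.000938; without it 0.328 and 0.26). Gadd45g, the GADD45 gene with the highest level here, had 65.0 and 67.8 FPKM with 4E-T, against 28.2 and 52.4 FPKM with IgG, also without overlap. In the blocked limma fit it passed narrowly on FPKM (0.77 on the log2 scale, adjusted p = 0.0478), not after quantile normalization (adjusted p = 0.0587) nor on recovered reads (adjusted p = 0.0614), and was 0.34 without IgG replicate 1 and 1.21 without IgG replicate 2.

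Gadd45b had 1.72 and 2.25 FPKM with 4E-T, against 2.36 and 2.22 FPKM with IgG, and its groups overlapped on FPKM (blocked limma fit, adjusted p = 0.774). On TMM-scaled CPM it lay below without overlap, at 2.28 and 2.39 CPM with 4E-T and 4.11 and 2.72 CPM with IgG. Atf4, the transcription factor that drives Ddit3 in the integrated stress response, had 44.4 and 57.4 FPKM with 4E-T, against 27.0 and 41.6 FPKM with IgG; the groups did not overlap, but the log2 fold change of 0.58 did not pass with the block (limma adjusted p = 0.161). Ddit4 (REDD1), an inhibitor of mTORC1, had 5.28 and 9.41 FPKM with 4E-T, against 4.18 and 16.4 FPKM with IgG, and was called lower on recovered reads with the block, at -0.65 (limma adjusted p = 0.0328). On the deposited FPKM Ddit4 was at -0.23 (blocked limma fit, adjusted p = 0.585), and its IgG replicate 2 was 3.93 times its IgG replicate 1. Its value was -1.11 without IgG replicate 1, 0.64 without IgG replicate 2, 0.13 without 4E-T replicate 1 and -0.60 without 4E-T replicate 2.

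The phosphatase genes Dusp1 and Dusp6, which switch off MAP kinases, stood higher in both experiments without passing. Dusp1 had 27.0 and 50.3 FPKM with 4E-T, against 19.7 and 28.7 FPKM with IgG (log2 fold change 0.61, blocked limma fit, adjusted p = 0.12). Dusp6, a cytoplasmic phosphatase, had 19.8 and 29.0 FPKM with 4E-T, against 11.8 and 22.4 FPKM with IgG (log2 fold change 0.53, adjusted p = 0.169 in the same limma fit).

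Of the remaining genes Ier2, a small nuclear protein gene, passed in all blocked fits. It had 14.2 and 32.9 FPKM with 4E-T, against 8.28 and 15.7 FPKM with IgG, so 4E-T replicate 1 lay under IgG replicate 2, and the ratios within the experiments were 1.72 and 2.09. Its value was 0.87 on the log2 scale (blocked limma fit, adjusted p = 0.0107), and 0.29 without 4E-T replicate 2, 0.44 without IgG replicate 1 and 1.44 without 4E-T replicate 1. Ier5, its relative, had 16.2 and 22.7 FPKM with 4E-T, against 8.30 and 16.1 FPKM with IgG, and just missed the threshold in the blocked limma fit (0.68 on the log2 scale, adjusted p = 0.0519). Ier3, a survival gene, had 3.46 and 4.79 FPKM with 4E-T, against 2.14 and 3.70 FPKM with IgG (blocked limma fit, adjusted p = 0.265).

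Arc, whose product forms capsid-like particles and tunes synapses, had 10.8 and 17.1 FPKM with 4E-T, against 4.88 and 16.7 FPKM with IgG, which is a ratio of 2.21 in experiment 1 and 1.02 in experiment 2. Sgk1, a kinase gene induced by glucocorticoids and serum, had 30.8 and 56.3 FPKM with 4E-T, against 17.1 and 36.02 FPKM with IgG (log2 fold change 0.72, blocked limma fit, adjusted p = 0.0602). Mcl1, a survival factor of the BCL2 family whose mRNA and protein both turn over fast, had 24.5 and 39.5 FPKM with 4E-T, against 22.2 and 45.5 FPKM with IgG, a log2 fold change of -0.03. On quantile-normalized values the blocked limma fit called Mcl1 lower, at -0.43 (adjusted p = 0.0429), but not on recovered reads (adjusted p = 0.27).

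**Figure D4:**
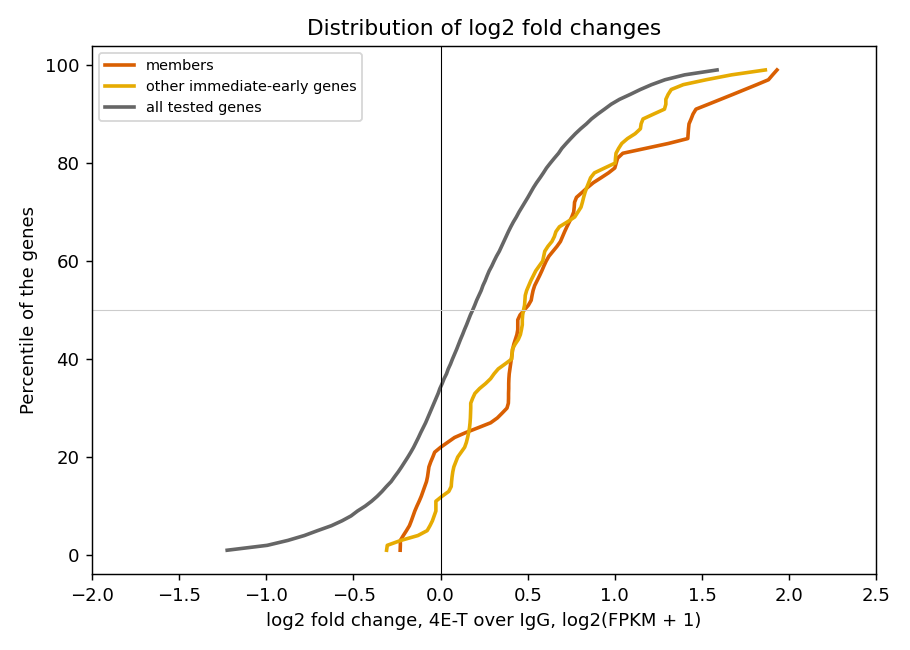
Percentiles of the log2 fold change (4E-T over IgG, log2(FPKM + 1)) over the 34 tested members, 46 other immediate-early genes and all 17651 tested genes. The medians are 0.48, 0.48 and 0.18, and at the 90th percentile the members stand at 1.45, the other immediate-early genes at 1.22 and all tested genes at 0.90.

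3 further lists, also chosen with earlier results of these data known, place these genes in their pathway. Each count is to be read beside the share of all tested genes in the same fit. With the block on FPKM, 17.5% of all tested genes rose and 4.44% fell. The shares were 10.4% and 9.23% on quantile-normalized values, and 13.2% and 11.5% on recovered reads, both with the block. Of 50 other immediate-early genes, 46 were tested and 16 rose and 0 fell with the block, with a median log2 fold change of 0.48. Myc, the proliferation factor gene, had 31.8 and 39.8 FPKM with 4E-T, against 5.43 and 11 FPKM with IgG (log2 fold change 2.06, limma adjusted p = 0.202 without and 4.4e-11 with the block). Npas4, an activity-dependent factor of neurons, had 10.8 and 7.84 FPKM with 4E-T, against 2.18 and 2.43 FPKM with IgG (log2 fold change 1.63, blocked limma fit, adjusted p = 8.44e-09). Klf13 and the secreted peptide precursor gene Vgf were lowest on this list, both at -0.31 (blocked limma fit, adjusted p = 0.459 and 0.458). On quantile-normalized values 12 of the 46 rose and 2 fell, and on recovered reads 14 rose and 2 fell, with Klf13 and Vgf as the 2 that fell in both blocked fits.

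A list of signalling and transcription factors named as upstream, from receptor-linked kinases to SRF, CREB and the stress kinases, held 52 tested genes. Of these, 11 rose and 0 fell with the block, against 17.5% and 4.44% of all tested genes, and the median log2 fold change was 0.26. Ppp1r15a (GADD34), itself induced by ATF4 and CHOP to restore translation, had 30.6 and 51 FPKM with 4E-T, against 6.12 and 14.4 FPKM with IgG (log2 fold change 1.95, blocked limma fit, adjusted p = 1.1e-09). The coactivator gene Crebbp followed at 1.45 (blocked limma fit, adjusted p = 2.97e-05), and the kinase gene Prkacb was lowest, at -0.13. On quantile-normalized values 7 of the 52 rose and 4 fell, Prkacb among them, and on recovered reads 10 rose and 0 fell. Of 57 tested genes for factors that bind AU-rich elements or carry out decay, 11 rose and 0 fell with the block, with a median of 0.31. Tia1, a stress granule protein gene, and Cnot3, a deadenylase subunit gene, were both at 1.28 (blocked limma fit, adjusted p = 0.000438 and 7.19e-05). On quantile-normalized values Tia1 did not pass (blocked limma fit, adjusted p = 0.182). Pum2 and Elavl1, which encode a translational repressor and the stabilising protein HuR, were lowest, at -0.28 and -0.23. On quantile-normalized values 9 of the 57 rose and 5 fell, and on recovered reads 10 rose and 2 fell. Pum2 was called lower under both (blocked limma fit, adjusted p = 0.00695 and 0.0403), and Elavl1 after quantile normalization (adjusted p = 0.00834).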

How the data were processed

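RNA precipitated with anti-4E-T or control IgG from the V-SVZ was sequenced in 4 libraries; per the labels' protocols, a SMART-Seq v4 kit made the cDNA and a Nextera XT kit the libraries. The submitters' processing notes name DESeq2 1.26.0, STAR 2.6.0c, Trim Galore 0.5.0 and HTSeq 0.6.1p2, with build mm10. No source used here gives the annotation or strand setting, so reads of overlapping and antisense genes cannot be told apart. The authors deposited FPKM per library. Per the file headers, the deposited table also holds the mean normalized signal per gene and the authors' log2 fold change, its score, p-value and linear fold ratio from DESeq2, printed here only as the authors' values.

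Genes whose mean FPKM reached 1 were fitted with limma 3.58.1 (R 4.3.3) on log2(FPKM + 1), a scale that understates the change of low genes, with antibody as the only term, a robust trended prior, a two-sided test and Benjamini-Hochberg adjustment over all 17651 tested genes (threshold 0.05). The titles number the experiments, which pairs the libraries, so values with this replicate block are given beside the unblocked ones. Deviations of same-numbered libraries from their group means correlated across genes at 0.672 on the deposited FPKM and at 0.491 after quantile normalization. Whole reads were recovered from the FPKM steps and the deposited signal (100% whole within 0.001 reads) and fitted with limma-voom after TMM scaling over the tested genes. On simulated data with experiment effects, the unblocked fit called none of the changed genes, and the blocked fits called most large changes and a minority of smaller ones. All members are named; from each further list the 2 highest and 2 lowest log2 fold changes are named, except 1 gene that is not reported here. The members and lists were chosen with earlier results of these data known.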

Additional observations from a re-analysis of the deposited data

How the results depend on the processing

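Of 374 log2 fold changes of single members under the alternatives, 25 changed sign, in 14 members, and 51 passed where the unblocked fit on FPKM did not. The same counts over all tested genes were not made. With the replicate block 11 members were called higher and 0 lower, against 17.5% and 4.44% of all tested genes. With quantile normalization and the replicate block 9 were higher and 2 lower, against 10.4% and 9.23% of all tested genes. On recovered reads with TMM and the replicate block 10 were higher and 1 lower, against 13.2% and 11.5%. The fit on FPKM without a block gave 0 and 0, against 0.00567% and 0%. The pseudocount of 0.1, no filter, quantile normalization and recovered reads, all without the block, also gave 0 and 0. Leaving out 1 library at a time gave 0 to 15 members higher and 0 to 1 lower. The members' median relative to all tested genes was 0.51 with no filter, where all 35147 genes enter, and 0.10 to 0.50 with 1 library left out. By scaling, Btg2 changed sign, at -0.32 after quantile normalization with or without the block and -0.20 on recovered reads with or without it; the cause was not tested.

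With 1 library left out, the members that changed sign had these ranges: Fosl2 -0.38 to 0.22, Jund -0.17 to 1.0, Atf3 -0.01 to 0.79, Egr3 -0.33 to 0.95, Nr4a1 -0.39 to 1.17, Nr4a2 -0.47 to 0.11, Klf2 -0.49 to 0.03, Klf4 -0.53 to 0.32, Klf6 -0.07 to 0.85, Arc -0.28 to 1.31, Mcl1 -0.53 to 0.47, Ddit4 -1.11 to 0.64, Btg1 -0.35 to 0.22 and Btg2 -0.31 to 0.49. With 2 libraries per group no exact permutation test over libraries can pass, and Fosb and Gadd45b held under 100 reads in every library.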
